A study of Mus musculus with 8 samples.

Results

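The tissue-specific basic helix-loop-helix (bHLH) genes examined here are 38 mouse genes that encode transcription factors of nerve, muscle, heart, limb, blood, pancreas and other lineages. They were chosen by name, with earlier results of these data known, so the shares below describe these genes and are no independent test. Every 200 bp tile of the 8 deposited tables that overlapped the GRCm38 RefSeq span of a member, or the 2 kb on either side of it, was taken. This gave 201 distinct tiles of the 53375 listed in the series. All 38 genes were found in the RefSeq gene table; 33 of them had at least 1 listed tile, and Ascl3, Tcf23, Ferd3l, Myf5 and Myf6 had 0.

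DNA methylation was measured by reduced representation bisulfite sequencing, which samples CpG-rich restriction fragments, in organoids grown from crypts of the proximal colon of male mice about 40 days old. The mice were heterozygous for a Braf allele (Braf+/LSL) that Cre recombinase turns into BrafV600E, the constitutively active kinase, so every library carries this allele. Organoid lines 1 and 3 each gave 4 libraries. In the first group lentiviral Cre had switched BrafV600E on, and at 5 months the organoids were in Base medium, which has no added niche factors of the stem cells. Its controls carried the empty lentiviral vector (EV) and were kept for 5 months in full medium, made with Wnt3a, R-Spondin, Noggin and EGF. A further pair of groups, also EV in full medium, was kept for 2 months or for 12 months (line 1) and 14 months (line 3); all 8 libraries had a final culture of 3 weeks. The BrafV600E comparison joins the oncogene with the medium and the Cre virus, and these cannot be told apart. The labels do not say whether the lines came from different mice. Each comparison sets 1 library against 1 library within a line, so the authors' q-values compare single libraries and the second line is the only repeat.

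Titles were followed where labels conflicted: the line 3 library titled 14 months carries a culture time of 2 months elsewhere, and the line 1 BrafV600E library has line 3 in its source name. The tables hold differences only, so the colon identity of the organoids was not checked against marker levels. A tile is said to have gained, or to be lost, where its methylation was higher, or lower, than in the control library of the line by at least 20 percentage points with a q-value of at most 0.01. A tile missing from a table may be uncovered or below the limits. The starting level also limits the direction, since a tile without methylation can show a gain and nothing else.

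bHLH factors bind E-box sequences in DNA as dimers, usually of a tissue-specific member with a widely expressed E protein, and Id proteins block such dimers. Members such as Myod1, Neurog2 and Tal1 are known for setting the fate of skeletal muscle, neurons and blood, and most are not used in adult colon epithelium. CpG-rich starts of such developmental genes are often held silent by Polycomb proteins in tissues that do not use them, and are known as frequent places of methylation gain in ageing and in colorectal cancer.

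Promoter sequences are shown for the 5 members at which a tile over the RefSeq promoter was listed in both lines of a comparison, since these are the starts where the lines can be compared at the same bases. The RefSeq promoter table matched 28 of the 38 members. Each run is the 250 bases before the RefSeq start (GRCm38.p6), read 5′ to 3′ along the gene, with each CG, the site of methylation, in capitals. Sim1 lies at chr10:50895401-50895650 (plus strand) with 11 CG, Npas3 at chr12:53248182-53248431 (plus strand) with 15, Bhlhe23 at chr2:180776901-180777150 (minus strand) with 13, Hand2 at chr8:57320733-57320982 (plus strand) with 15 and Neurog1 at chr13:56252181-56252430 (minus strand) with 29.
Sim1: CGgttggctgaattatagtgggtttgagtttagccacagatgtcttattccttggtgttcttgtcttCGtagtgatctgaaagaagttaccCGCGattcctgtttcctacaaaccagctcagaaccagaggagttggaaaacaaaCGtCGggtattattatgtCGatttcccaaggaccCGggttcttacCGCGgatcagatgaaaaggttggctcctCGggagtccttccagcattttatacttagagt
Npas3: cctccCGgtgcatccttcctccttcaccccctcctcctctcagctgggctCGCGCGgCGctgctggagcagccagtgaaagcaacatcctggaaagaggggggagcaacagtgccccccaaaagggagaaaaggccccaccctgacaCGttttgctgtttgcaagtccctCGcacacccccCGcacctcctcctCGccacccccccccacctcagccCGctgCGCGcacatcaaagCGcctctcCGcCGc
Bhlhe23: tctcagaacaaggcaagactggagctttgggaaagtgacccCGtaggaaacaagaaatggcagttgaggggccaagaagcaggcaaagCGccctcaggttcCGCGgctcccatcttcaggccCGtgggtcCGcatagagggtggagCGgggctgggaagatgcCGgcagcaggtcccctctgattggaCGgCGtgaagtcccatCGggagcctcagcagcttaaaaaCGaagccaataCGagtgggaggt
Hand2: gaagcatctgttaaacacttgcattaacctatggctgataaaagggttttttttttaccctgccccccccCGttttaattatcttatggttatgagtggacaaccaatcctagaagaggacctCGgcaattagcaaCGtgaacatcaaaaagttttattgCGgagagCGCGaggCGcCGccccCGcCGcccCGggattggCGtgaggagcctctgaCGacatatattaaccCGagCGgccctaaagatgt
Neurog1: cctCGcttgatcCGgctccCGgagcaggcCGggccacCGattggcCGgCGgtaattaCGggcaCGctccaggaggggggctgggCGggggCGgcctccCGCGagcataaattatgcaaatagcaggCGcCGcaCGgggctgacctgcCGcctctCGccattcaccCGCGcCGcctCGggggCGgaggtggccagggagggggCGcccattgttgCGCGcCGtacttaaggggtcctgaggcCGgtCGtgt
With BrafV600E the 2 tiles over the Sim1 promoter, the 1 over Bhlhe23 and 1 of the 2 over Hand2 gained methylation in both lines; the other Hand2 tile was listed for line 3 only. The tiles over Npas3 gained in both lines after long culture, and only the 2 ends of its printed run lie under them. Of the Bhlhe23 run only the later part lies under its tile. The tile over Neurog1 gained in line 1 and was lost in line 3 with BrafV600E, although this promoter was the richest of the 5 in CG; only the last bases of the printed run lie under that tile.

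With BrafV600E in Base medium, methylation gains at these genes outnumbered losses in both lines. Sim1, Sim2 and Hand2, which encode factors of hypothalamus, midline and heart, carried the most tiles that gained in both lines, and Neurog2, a neuronal determination gene, held the only tile lost in both. In the authors' deposited tables for line 1, 65 of 69 tiles at members gained, which is 94.2% (exact 95% interval 85.8 to 98.4), against 67.5% of all listed tiles. The line 3 tables of the authors listed 75 gains among 102 member tiles, 73.5% (63.9 to 81.8), against 40.4% of all listed tiles. The median difference over member tiles was 35.6 points (line 1) and 33.2 points (line 3), against 31.8 and -28.8 points over all tiles of the authors' deposited tables. Tiles in the same windows of all protein-coding genes stood between, with 72.1% and 47.4% gains.

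Counted by gene, 23 of 38 members had gains only in line 1, 60.5% of the list against 13.3% of 21900 protein-coding genes, and 3 had losses only, 7.89% against 6%. In line 3, 14 members had gains only, 36.8% against 12.1%, and 6 had losses only, 15.8% against 11.5%. The loss shares stood much nearer to those of all genes than the gain shares did. Gains only in both lines were found at 8 members (Neurod6, Bhlhe22, Hand1, Hand2, Lyl1, Ptf1a, Sim1 and Npas1), 21.1% against 4.31% of all genes, and losses only in both lines at Myod1 alone, 2.63% against 1.69%. Neurod6, Bhlhe22, Lyl1, Ptf1a and Myod1 had 0 tiles listed in both lines, so at these genes the lines rested on different tiles. Another 7 members had gains only in line 1 and tiles of both directions in line 3: Neurod2, Bhlhe23, Olig2, Olig3, Tal1, Sim2 and Npas3. The share of all protein-coding genes with this pair of calls is not given here, so these 7 are not shown to be unusual. Members were also listed more often than other genes, 86.8% against 44.9% in any table; among genes listed somewhere, 24.2% of members and 9.6% of 9828 genes gained only in both lines. With spans limited to 20 kb as well, the shares were 20.7% of 29 members and 10.9% of 3966 genes, and after long culture 31% and 8.4%. The 8 members became 3 with windows of 5 kb and 4 when at least 2 tiles a line were asked for. How well the assay covers these genes was not tested.

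After long culture without the oncogene, gains prevailed as well, and far more tiles were listed in line 3 (14 months) than in line 1 (12 months). The authors' deposited tables for line 1 listed 32 gains among 42 member tiles, 76.2% (60.5 to 87.9), against 40.9% of all tiles. For line 3 they listed 125 gains among 132 member tiles, 94.7% (89.4 to 97.8), against 71.9% of all tiles. The median member tile differed by 29.8 points in line 1 and 43.4 points in line 3, against -28.7 and 35.0 points over all tiles of the authors' deposited tables. In windows of all protein-coding genes 47.9% and 78.2% of tiles gained.

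By gene, 10 members had gains only in line 1, 26.3% against 5.74% of protein-coding genes, and 1, Npas1, had losses only, 2.63% against 8.05%. In line 3, 24 members had gains only, 63.2% against 14.8%, and 2, Tcf21 and Myog, had losses only, 5.26% against 6.7%. The 10 members with gains only in line 1 all had gains only in line 3 (Neurod2, Bhlhe23, Olig2, Olig3, Hand1, Tcf15, Tcf24, Tal1, Sim1 and Nhlh2), so the share for both lines was also 26.3%, against 3.03% of all genes. These 10 became 5 at differences of at least 40 points and 6 with at least 2 tiles a line. Losses only in both lines were found at 0 members, against 1.16% of all genes. Hand1 and Sim1 had gains only in all 4 within-line comparisons, 5.26% of members against 0.553% of all genes.

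**Figure D1:**
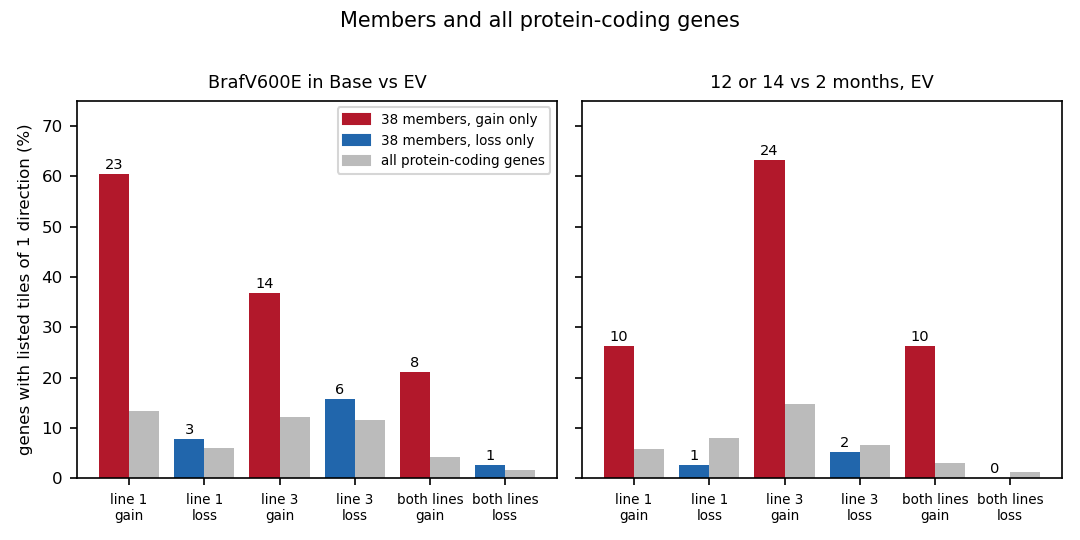
Percent of genes (y axis) whose listed tiles all gained or all lost methylation within 2 kb of the gene, by line and in both lines, for the 38 members (coloured bars, number of members above) and for all 21900 protein-coding genes (grey bars). Members stood above all genes for gains in every column. In both lines the shares were 21.1% against 4.31% with BrafV600E and 26.3% against 3.03% after long culture. With BrafV600E member loss shares were also above, at 7.89% against 6% (line 1), 15.8% against 11.5% (line 3) and 2.63% against 1.69% (both lines). After long culture they were below, at 2.63% against 8.05%, 5.26% against 6.7% and 0 against 1.16% in the same order.

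**Figure D2:**
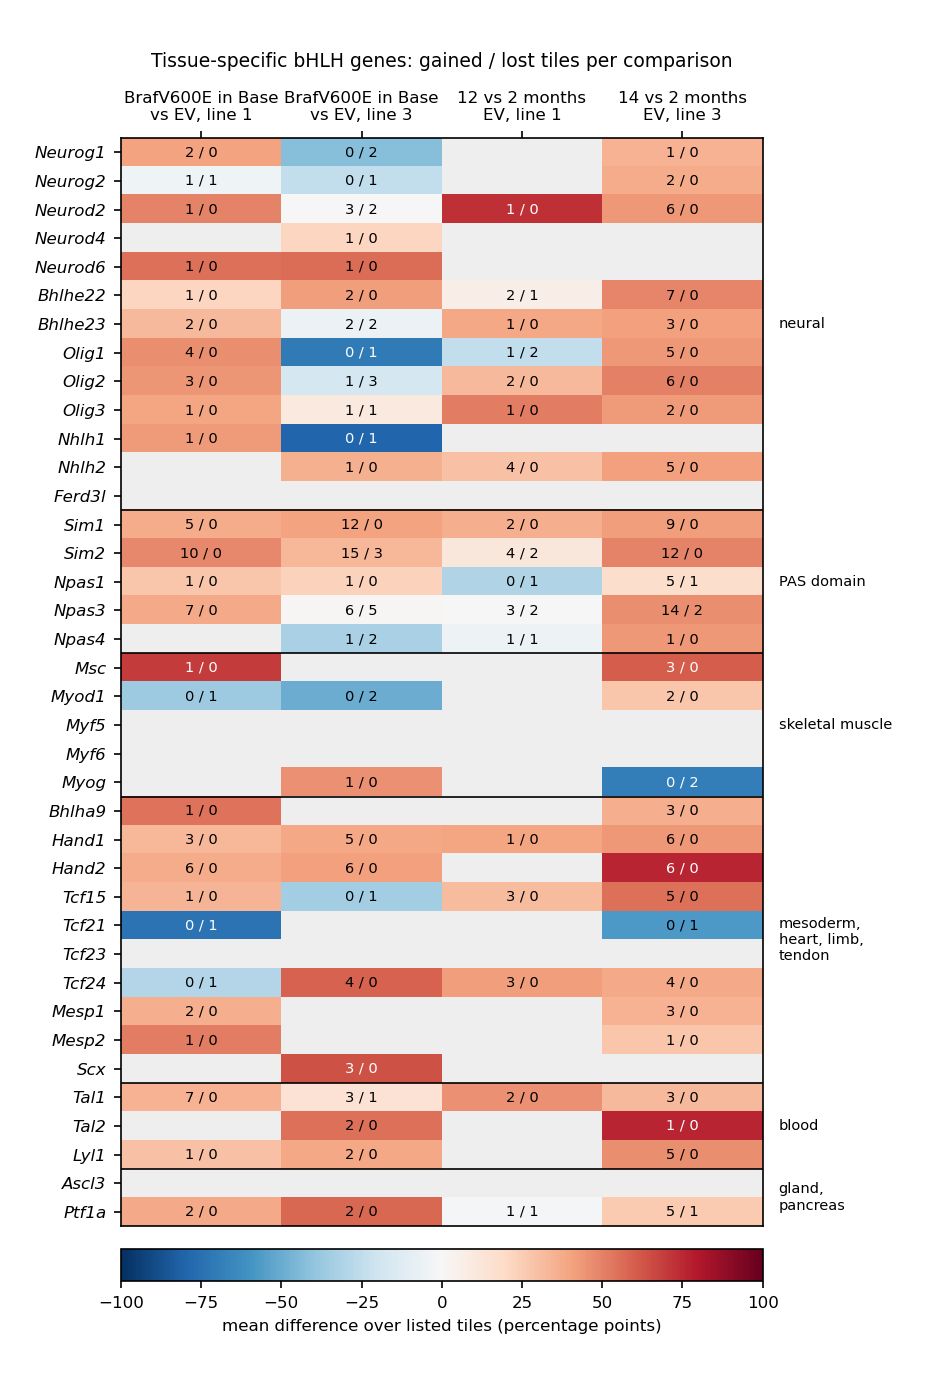
Each row is 1 of the 38 members, grouped by role, and each column 1 within-line comparison; colour gives the mean difference over listed tiles in percentage points, the text gives gained / lost tiles, and grey cells have 0 listed tiles. Sim1 and Hand1 show gains in every column, and the long culture column of line 3 has gains only at 24 members.

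The PAS-domain members Sim1, Sim2, Npas1, Npas3 and Npas4 dimerise through an additional PAS domain and act mainly in the nervous system. Sim1 and Npas3 held unbroken gained runs of 8 and 7 tiles. Sim2, a regulator of midline and forebrain development (chr16:94085104-94127032), had 24 listed tiles, the second highest number after Npas3. With BrafV600E 10 tiles gained and 0 were lost in line 1, and 15 gained and 3 were lost for line 3 in the authors' deposited tables; after long culture 4 gained and 2 were lost in line 1, and 12 gained and 0 were lost in line 3.

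A pair of neighbouring Sim2 tiles gained in all 4 comparisons. The tile centred at -1404 bp from the lower-numbered end of the gene gained 65.8 and 46.9 points in lines 1 and 3 with BrafV600E and 51.8 and 45.3 points after long culture in the authors' deposited tables. For the tile at -1204 bp these tables gave 49.1, 55.9, 44.5 and 43.6 points in the same order. Line 1 was higher at the first tile in both comparisons, and at the second the lines took opposite orders. Both tiles also lie in the span of the neighbouring gene Gm31175. Losses at Sim2 in line 3 with BrafV600E (-24.8, -83.3 and -27.7 points) lay between 36196 and 40796 bp from that end, toward the other end of the gene, in the authors' deposited tables. There the tile at 40796 bp gained 79.2 points after long culture in line 3.

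Sim1, needed for hypothalamic neurons (chr10:50894698-50989156), gained in every listed tile: 5 and 12 tiles with BrafV600E and 2 and 9 after long culture (lines 1 and 3) in the authors' deposited tables. Around its start the tiles from -1150 to 250 bp formed an unbroken run of 8 gained tiles in line 3 with BrafV600E. The tile at -150 bp, over the printed sequence, gained 41.4 and 33.4 points with BrafV600E in lines 1 and 3 and 28.1 points after long culture for line 3 in the authors' deposited tables, and was not listed for line 1 after long culture. The tile at 50 bp, which also overlaps the printed sequence, was listed as a gain in all 4 of the authors' comparisons, by 20.3 and 41.6 points with BrafV600E and 38.6 and 27.2 points after long culture. Its order between the lines was opposite in the 2 comparisons. The 8 tiles of the run lie in or within 2 kb of the neighbouring gene A230054N11Rik.

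Npas3, a factor of neuronal development, spans 824 kb (chr12:53248026-54072173) and had 27 listed tiles. The tiles at -332 and 68 bp gained 61.1 and 41.5 points in line 1 and 84.8 and 81.4 points in line 3 after long culture in the authors' deposited tables, and were not listed with BrafV600E, where the next listed tile, at 268 bp, gained 44.2 points in line 3. A run of 7 adjoining tiles from 4068 to 5268 bp gained 49.1 to 87.2 points after long culture in line 3, in or within 2 kb of Gm51419. Within that run 5 tiles gained 21.1 to 62.4 points in line 1 with BrafV600E, and 1 tile gained 22.7 points in line 3, per the authors' deposited tables. All 5 losses at Npas3 with BrafV600E in line 3 (-29.6 to -72.1 points in the authors' deposited tables) lay over 40 kb inside the gene. After long culture Npas3 also lost methylation deep in its body, by -81.0 and -44.4 points at 2 tiles in line 1 and by -70.2 and -36.8 points at 2 others in line 3, per the authors' deposited tables, so it was mixed in both lines.

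Npas1, an interneuron repressor, gained 27.8 and 23.2 points with BrafV600E at the same tile in lines 1 and 3, and lost methylation there by -30.0 points after long culture for line 1 in the authors' deposited tables. After long culture in line 3 it had 5 gained tiles and 1 lost by -63.0 points in the authors' deposited table. Npas4, an activity-induced factor of neurons, lost methylation at the tile 1670 bp inside the gene, by -79.2 points with BrafV600E in line 3 and by -66.6 points after long culture for line 1 in the authors' deposited tables. That tile came from different lines in the 2 comparisons. Npas4 also gained, at -11730 bp by 41.0 points with BrafV600E and 43.2 points after long culture in line 3, and at -930 bp by 56.5 points after long culture in line 1, per the authors' deposited tables.

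**Figure D3:**
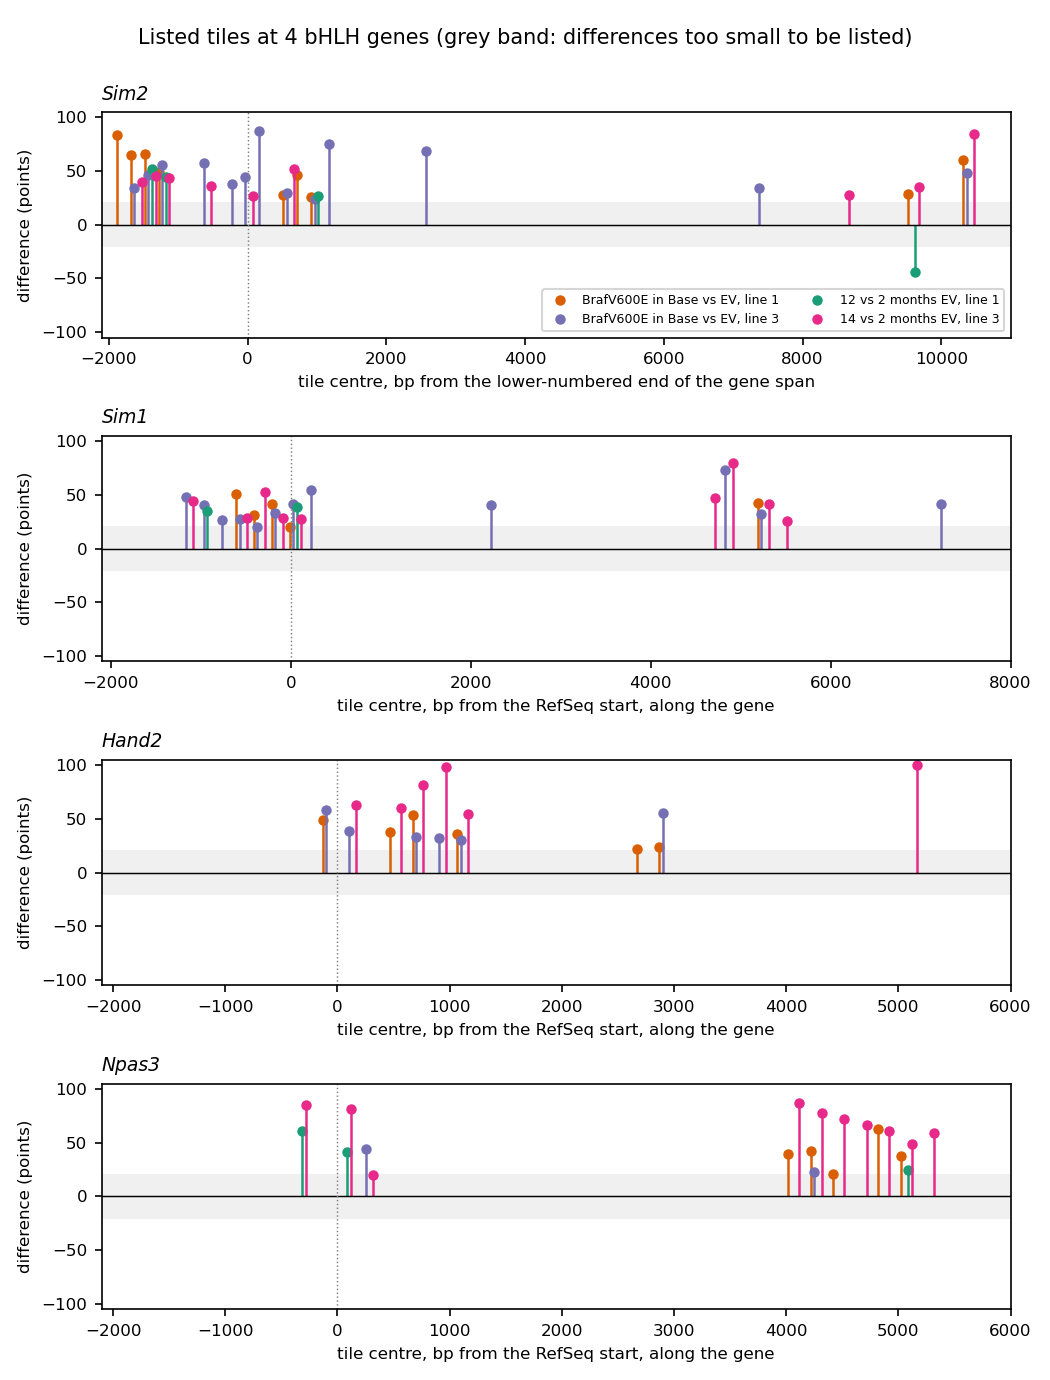
Difference of each listed tile in view in percentage points (y axis) against the position of its centre in bp (x axis; from the lower-numbered gene end for Sim2 and from the RefSeq start for Sim1, Hand2 and Npas3), coloured by comparison and line and shifted slightly sideways for legibility. Tiles farther inside Sim2 and Npas3 are not shown. Apart from 1 Sim2 tile lost after long culture in line 1, the tiles in view gained, with the pair at -1404 and -1204 bp of Sim2 gained in all 4 comparisons. Every Npas3 loss and all other Sim2 losses lie outside the view.

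Among the 10 members of mesoderm, heart, limb and tendon, gained tiles outnumbered lost ones in each of the 4 comparisons: 14 against 2 and 18 against 1 with BrafV600E in lines 1 and 3, and 7 against 0 and 28 against 1 after long culture. Hand2, a heart and limb factor (chr8:57320983-57324517), gained at 4 tiles in both lines with BrafV600E. At the tile 82 bp before the start (centre at -82 bp), over the printed sequence, the gains were 49.2 and 58.5 points (lines 1 and 3) in the authors' deposited tables. At 718 bp they were 53.2 and 33.1 points, at 1118 bp 35.6 and 30.7 points, and at 2918 bp 23.4 and 55.4 points in the same tables. Line 1 was higher at 2 of the 4 tiles and line 3 at the other 2. After long culture Hand2 had 6 gained tiles in line 3, of 55.0 to 100 points in the authors' deposited table, averaging 76.4 points, and 0 in line 1. The tile of 100 points lay beside the gene, at 5118 bp, with a q-value close to the limit of 0.01. The 6 tiles between -82 and 1118 bp also lie within 2 kb of the antisense gene Hand2os1.

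Hand1, its paralogue in heart and placenta (chr11:57828713-57832147), had 3 and 5 gained tiles with BrafV600E and 1 and 6 after long culture, with means of 33.1, 38.7, 39.1 and 43.0 points in the authors' deposited tables. A Hand1 tile listed in both lines with BrafV600E gained 47.8 and 38 points, and a different one listed in both after long culture gained 39.1 and 44.7 points after long culture, per the authors' deposited tables. Tcf15, a somite factor (chr2:152143056-152149097), gained at 3 shared tiles after long culture, by 31.6, 28.0 and 35.5 points in line 1 and 40.0, 61.0 and 57.4 points for line 3 in the authors' deposited tables; line 3 was higher at each. With BrafV600E its only listed tile gained 33.6 points in line 1 and was lost by -34.5 points for line 3 in those tables. All 5 Tcf15 tiles lie in or within 2 kb of the neighbouring gene Gm31535.

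Tcf24, a little-studied family member (chr1:9960163-9967981), gained at 2 shared tiles after long culture, by 36.2 and 69.5 points in line 1 and 32.5 and 61.5 points in line 3 in the authors' deposited tables. With BrafV600E the second of these was lost by -29.4 points in line 1 and gained 70.9 points in line 3. All 7 Tcf24 tiles lie within 2 kb of the neighbouring gene Ppp1r42. Bhlha9, a limb factor, and the paralogues Mesp1 and Mesp2, factors of early mesoderm and somites, gained in line 1 with BrafV600E (means of 54.1, 36.0 and 50.8 points) and in line 3 after long culture (36.4, 34.8 and 27.5 points), and were listed in 0 other tables of the authors. Tcf21, a factor of visceral mesoderm, had 1 listed tile, before its start and in the span of Gm10824, lost by -73.9 points in line 1 with BrafV600E and by -57.6 points in line 3 after long culture in the authors' deposited tables. The tendon factor gene Scx gained 38.9 to 87.0 points at 3 adjoining tiles with BrafV600E in line 3 only; these tiles lie inside the gene Bop1 as well.

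The 13 neural members include the proneural Neurog and Neurod genes, the Olig genes of motor neurons and oligodendrocytes, and Bhlhe22, Bhlhe23, Nhlh1, Nhlh2 and Ferd3l. With BrafV600E 17 tiles gained and 1 was lost in line 1, against 12 gained and 13 lost in line 3. After long culture 12 gained and 3 were lost in line 1, and 37 gained and 0 were lost in line 3. The near-even split with BrafV600E in line 3 was like that of all protein-coding windows, where 47.4% of tiles gained. Of the 13 neural genes, 9 had gains only and 0 losses only in line 1 with BrafV600E, against 13.3% and 6% of all genes. In line 3, 4 had gains only, 4 losses only and 4 both directions, against 12.1% and 11.5% of all genes with gains or losses only.

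Olig2, which specifies motor neurons and oligodendrocytes (chr16:91225550-91228677), gained 32.8, 34.1 and 66.3 points at 3 tiles in line 1 with BrafV600E, and lost methylation at the first 2 of them in line 3, by -33.4 and -31.8 points, in the authors' deposited tables. These 2 tiles gained after long culture in line 3, by 32.9 and 50.1 points. At a further tile, 1350 bp inside the gene, both lines gained after long culture, by 38.1 and 50.7 points, and line 3 lost with BrafV600E, by -25.8 points, per the authors' deposited tables. At the neighbouring Olig1 (chr16:91269769-91271939) 1 tile was listed in all 4 comparisons with opposite directions in the lines both times. It gained 49.9 points with BrafV600E in line 1 and was lost by -70.7 points in line 3, then lost by -42.9 points after long culture in line 1 and gained 37.5 points for line 3 in the authors' deposited tables. Olig3, a factor of dorsal spinal cord neurons, gained 51.5 and 31.6 points at 1 tile after long culture in lines 1 and 3, and that tile was lost by -24.7 points with BrafV600E for line 3 in the authors' deposited tables.

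Neurog1 and Neurog2 start neuronal differentiation. Neurog1 (chr13:56250478-56252180) gained 41.0 and 39.0 points in line 1 with BrafV600E at 680 and 80 bp from its start, and lost methylation at both tiles in line 3, by -53.5 and -31.1 points, in the authors' deposited tables. Neurog2 (chr3:127632733-127635636) lost methylation at 1564 bp by -33.6 points in line 1 and -24.3 points in line 3 with BrafV600E, while the adjoining tile gained 25.1 points in line 1. The tile lost in both lines gained 47.5 points after long culture for line 3 in the authors' deposited tables.

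Neurod2, a factor of cortical neurons (chr11:98325415-98329645), gained at 1 shared tile with BrafV600E, by 49.3 and 26.5 points, and at another after long culture, by 72.8 and 39.8 points (lines 1 and 3) in the authors' deposited tables. Its tiles at the start, 144 and -56 bp, were lost in line 3 with BrafV600E, by -36.9 and -54.9 points, and the second gained 64.5 points after long culture in that line. Bhlhe23, a retinal and brain repressor (chr2:180774381-180776900), had 1 gained and 2 lost tiles in line 3 with BrafV600E besides the one at its start (71.7, -90.9 and -23.7 points). It gained at its start by 31.7 and 20.5 points with BrafV600E in lines 1 and 3, and at 400 bp by 38.4 and 48.1 points after long culture, in the authors' deposited tables. Bhlhe22 (chr3:18054325-18057514), another neuronal repressor gene, had an unbroken run of 7 tiles gained by 26.2 to 68.5 points after long culture in line 3; in line 1, 2 of these gained 22.5 and 22.2 points and 1 was lost by -24.8 points in the authors' deposited tables. With BrafV600E its gains were at different tiles in the lines.

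Nhlh2, a factor of hypothalamic neurons (chr3:102010111-102015492), gained at 3 shared tiles after long culture, by 26.9, 25.7 and 23.8 points in line 1 and 26.7, 62.1 and 48.1 points for line 3 in the authors' deposited tables. Its paralogue Nhlh1 had 0 tiles after long culture, and with BrafV600E 1 gained tile in line 1 (42.9 points) and, elsewhere, 1 lost tile in line 3 (-79.0 points) in those tables. Neurod6 gained 54.9 and 55.9 points with BrafV600E in lines 1 and 3 at adjoining tiles beside the gene, and Neurod4 had 1 tile, at 21.6 points in line 3, per the authors' deposited tables. Both encode factors of neuronal differentiation.

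The skeletal muscle members had few listed tiles. Myf5 and Myf6, which share a locus, had 0 tiles, and all 5 muscle members were unlisted after long culture in line 1. Myod1, which can turn other cells into muscle (chr7:46376474-46379092), lost methylation with BrafV600E, by -36.0 points at 1 tile in line 1 and by -38.5 and -60.0 points at other tiles for line 3 in the authors' deposited tables, with 0 tiles shared between lines. After long culture in line 3 it gained 26.0 and 28.7 points at 2 of these tiles. Myog, which acts in terminal muscle differentiation, had the reverse order in line 3: 1 tile at its start gained 46.0 points with BrafV600E and was lost by -38.9 points after long culture in the authors' deposited tables, where another of its tiles was lost by -100 points; both lie within 2 kb of Myoparr. Msc, a repressor in muscle precursors, gained 70.0 points in line 1 with BrafV600E and 24.3 to 92.9 points at 3 other tiles in line 3 after long culture in the same tables.

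Of the blood members, Tal1, the master gene of blood stem cells (chr4:115056426-115071755), gained at 3 adjoining shared tiles just inside its first start with BrafV600E. At 274, 474 and 674 bp the gains were 22.9, 43.1 and 34.7 points in line 1 and 44.0, 21.1 and 25.2 points for line 3 in the authors' deposited tables; these tiles were listed in 0 tables of long culture, and lie within 2 kb of Gm33786 and Gm52674. At 5490 bp from its nearest start Tal1 gained 35.5 points in line 1 and was lost by -33.5 points in line 3 with BrafV600E, and gained 46.4 points after long culture in line 3. Its paralogue Lyl1 gained with BrafV600E by 29.3 points at 1 tile in line 1 and by 27.0 and 50.6 points at other tiles for line 3 in the authors' deposited tables. The line 3 tiles lie beyond the end of Lyl1, inside the gene Nfix. Tal2 gained only in line 3, by 69.7 and 40.6 points with BrafV600E and 76.5 points at an adjoining tile after long culture in those tables.

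Ptf1a, which is needed for the exocrine pancreas (chr2:19445663-19447501), gained with BrafV600E at 2 tiles in each line, of 55.2 and 21.3 points in line 1 and 76.3 and 38.5 points for line 3 in the authors' deposited tables; the lines shared 0 tiles. After long culture the tile at 638 bp gained 45.3 and 61.0 points in lines 1 and 3, and the tile at 238 bp was lost by -48.8 points in line 1 and gained 49.0 points in line 3. The tile at 2838 bp, which gained the 38.5 points in line 3 with BrafV600E, was lost there by -43.8 points after long culture in the authors' deposited table, so Ptf1a was mixed in both lines. All 6 Ptf1a tiles lie in the span of the antisense gene Ptf1aos or of 1810010K12Rik. Ascl3, a salivary duct factor gene, was unlisted.

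Where the same member tile was listed in both lines with BrafV600E, 23 of 32 tiles gained in both, 1 was lost in both, 7 gained in line 1 and were lost in line 3, and 1, at Tcf24, had the opposite order. The 23 shared gains lay at 9 genes, with Sim2, Sim1, Hand2 and Tal1 holding 6, 5, 4 and 3. The 7 tiles that gained in line 1 and were lost in line 3 lay at Neurog1, Olig1, Olig2, Tcf15 and Tal1. The share with 1 direction, 75%, was close to the 73.9% of all 5934 tiles listed in both lines. The 32 tiles were 46.4% of the member tiles of line 1 and 31.4% of those of line 3. After long culture 25 of 30 shared tiles gained in both lines, at 15 genes, and the remaining 5 were lost in line 1 and gained in line 3; 83.3% had 1 direction, against 68.5% of all 3220 such tiles.

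**Figure D4:**
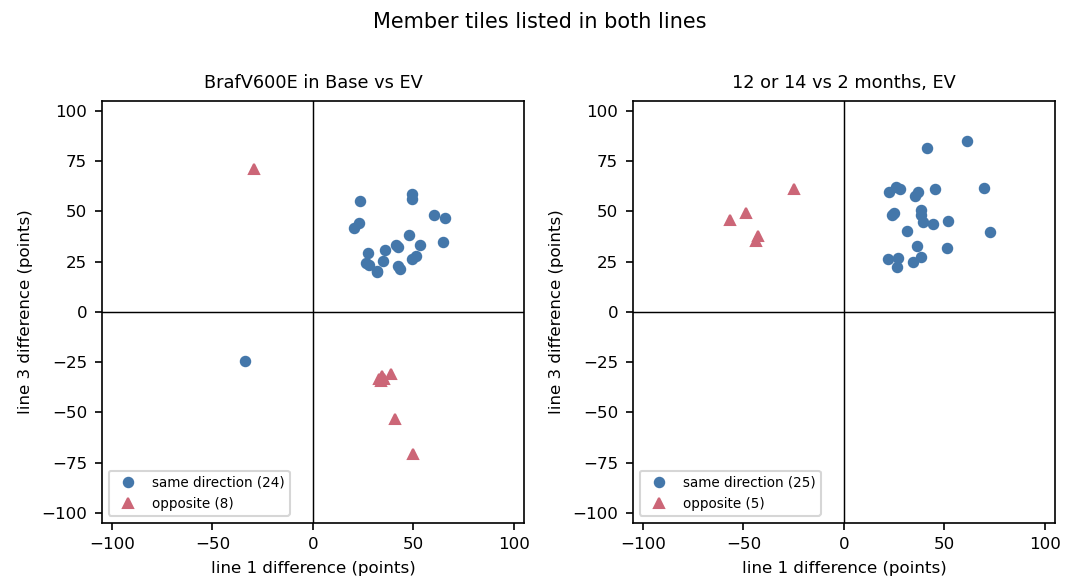
Difference in line 1 (x axis) against line 3 (y axis), in percentage points, for member tiles listed in both lines; circles have the same direction and triangles opposite directions. Of 32 tiles with BrafV600E 23 lie in the upper right quadrant, and of 30 tiles after long culture 25 do; tiles with an absolute difference under 20 points are not listed.

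The BrafV600E and long culture comparisons of a line share no library. In line 1, 16 member tiles were listed in both: 10 gained in both, 5 gained with BrafV600E and were lost after long culture (2 at Olig1 and 1 each at Ptf1a, Sim2 and Npas1), and 1, at Tcf24, did the reverse. Those 5 tiles were 31.2% of the 16, against 38.9% of all 2384 tiles listed in both comparisons of line 1. The reverse made up 6.25%, against 12.2%. In line 3, 49 were listed in both: 32 gained in both, 14 were lost with BrafV600E and gained after long culture, and 3 did the reverse. Those 14 tiles were spread over 12 genes, with 3 at Olig2, and were 28.6% of the 49, against 34.7% of all 6964 tiles listed in both comparisons of that line. Member tiles lost in both comparisons numbered 0 in each line, against 13.3% of all such tiles in line 1 and 12% in line 3. Over all listed tiles the shares with 1 direction were 48.9% in line 1 and 51.9% in line 3, against 62.5% and 65.3% of member tiles. Which library of each pair was high or low at these tiles could not be read from differences alone.

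**Figure D5:**
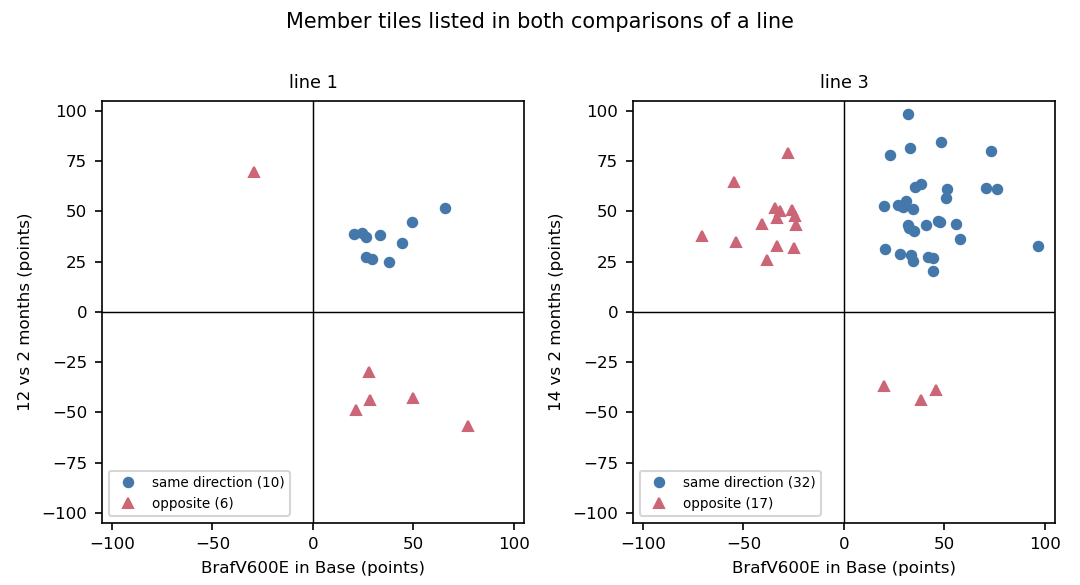
Difference with BrafV600E in Base medium (x axis) against long culture (y axis), in percentage points, for member tiles listed in both comparisons of line 1 (left) and line 3 (right); circles have the same direction and triangles opposite directions. In line 3, 32 of 49 tiles gained in both and 14 lie in the upper left quadrant, lost with BrafV600E and gained after long culture; the lower left quadrant is empty in both panels.

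Of the 201 member tiles, 101 were listed in 1 comparison, 61 in 2, 34 in 3 and 5 in all 4. Of the same 201, 34 lay within the span of another gene and 85, counting these, lay in or within 2 kb of one. Not every such neighbour is named above. Among the 39 tiles listed in 3 or 4 comparisons, 24 gained in each of them, 61.5% against 40.8% of the 4348 such tiles in the series. For the 28 members with a RefSeq start, 24 of 45 gained tiles lay within 1 kb of the start in line 1 with BrafV600E (53.3%, against 44.5% of gained tiles at all protein-coding genes) and 24 of 46 in line 3 (52.2% against 40.5%). After long culture the shares were 9 of 18 (50% against 57.7%) and 37 of 81 (45.7% against 51.8%), below those of all genes. Downstream of the start lay 79.2% and 75% of these near tiles in lines 1 and 3 with BrafV600E, where 65.9% and 64.2% did so at all protein-coding genes. After long culture the downstream share was 66.7% both at members and at all protein-coding genes in line 1. In line 3 it was 73% at members against 67.8%.

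The RefSeq table gave 30 promoters, of 300 bases each, for these 28 members. They were searched for CG, which reads the same on both strands. The median was 9.5 CG a promoter, against 13 over 21263 promoters of protein-coding genes, of which 95.4% held at least 1. The 12 member promoters with a listed tile over them held 9 to 32 CG, with a median of 17.5. The 14 other promoters of listed members had a median of 6, and the 4 of members in no table (Ascl3, Tcf23, Ferd3l and Myf5) held 3 to 7. The four-base site CCGG, which contains CG, occurred in 10 of the 12 promoters with a tile over them and in 20 of all 30 (66.7%), against 62.2% of all promoters. The part of sequence coverage in the member counts was not tested.

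Other bHLH genes were set beside the members. Of all 21900 protein-coding genes, 13.3% gained only and 6% lost only with BrafV600E in line 1, and 12.1% and 11.5% in line 3. After long culture the shares of all genes were 5.74% and 8.05% in line 1, and 14.8% and 6.7% in line 3. Gains only in both lines were found at 4.31% with BrafV600E and 3.03% after long culture. Among 7 genes of the dimer partners, the E proteins and their Id inhibitors, 1 gained only (Tcf3) and 3 lost only (Id2, Id3 and Id4) with BrafV600E in line 1; in line 3, 1 gained only (Tcf4) and 1 lost only (Id2). Id2 lost methylation at the same tile by -21.7 and -23.3 points (lines 1 and 3) in the authors' deposited tables. After long culture Id4 gained in both lines, with means of 61.8 and 33.1 points there. Of 6 bHLH genes of gut lineages 5 gained only with BrafV600E in line 1, against 1 gained only and 2 lost only in line 3. After long culture 2 of the 6 gained only in line 1, 5 gained only and 1 lost only in line 3, and 2 gained only in both lines. With BrafV600E Atoh1, the switch to secretory cells, gained at 3 shared tiles, with means of 46.3 points in line 1 and 46.5 points in line 3. After long culture Atoh1 was unlisted in line 1 and gained 33.1 points in line 3, per the authors' deposited tables.

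The 10 Hes and Hey genes, repressors in the Notch pathway, had 4 gained only and 3 lost only in line 1 and 2 each in line 3 with BrafV600E, and after long culture 4 gained only and 2 lost only in line 1, 5 and 0 in line 3, and 3 gained only in both lines (Hes2, Hes3 and Helt). Among 31 widely expressed leucine zipper and PAS bHLH genes, 0 had the same single direction in both lines in either comparison. Gains only in both lines were found at 8 and 10 members, 21.1% and 26.3% of 38. With BrafV600E the gut lineage list had 1 of 6 such genes and the Hes and Hey list 1 of 10. After long culture these lists had 2 of 6 and 3 of 10, so such gains were not particular to the members. Over all protein-coding genes the shares were 4.31% with BrafV600E and 3.03% after long culture, so 0 of 31 stood near them. With BrafV600E 5 of the 31 gained only and 2 lost only in line 1, and the same numbers held in line 3; after long culture they were 2 and 2 in line 1 and 5 and 1 in line 3. With BrafV600E Epas1, a hypoxia factor, and Bhlhe41, a clock repressor, had opposite directions in the lines. Epas1 had means of -59.2 and 66.1 points and Bhlhe41 58.2 and -39.4 points (lines 1 and 3) in the authors' tables as deposited. The difference between these lists and the members was not tested.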

How the data were processed

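Each of the 8 deposited tables lists 200 bp tiles for 1 library against 1 library of the same organoid line. Per the file headers, the authors computed for each tile a methylation difference in percent (points; negative for losses). The authors also computed and deposited a p-value and q-value per tile, per the file headers. The submitters' processing notes name FastQC 0.11.7, Trim Galore 0.4.4, Bismark 0.14.3, methylKit 1.7.4 and build GRCm38; for settings and coverage minimum, the sources used here state none. The values show that every tile differs by at least 20 points with a q-value of at most 0.01. Depth is unknown and no level is listed, so no interval of a tile could be given.

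Tiles overlapping a gene's RefSeq span (GRCm38.p6) plus 2 kb either side were taken (Python 3.11.15, pandas 2.3.3); the overlap code was tested on simulated data. A gene was a gain where at least 1 tile gained and 0 lost, a loss in the reverse case, and mixed where tiles of both directions were listed. Shares of tiles have exact Clopper-Pearson 95% intervals, covering counting error only; neighbouring tiles are not independent, so these are too narrow. No test between conditions was made. The members and lists were chosen with earlier results of these data known. The rule gave tile values to members with a tile listed in both lines of a comparison, or with the same single direction in both; values of Neurod4, Bhlha9, Tcf21, Msc, Tal2, Mesp1, Mesp2, Nhlh1, Myog, Npas4 and Scx, outside it, were added after they were seen. Alternatives were other limits on difference and q-value, other windows, merged tiles, at least 2 tiles, and either line alone; leaving out Sim1, Sim2 and Npas3 was added after seeing the data.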

Additional observations from a re-analysis of the deposited data

Results flagged for a closer look

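At 5 members the listed tiles moved one way in line 1 and the other way in line 3 with BrafV600E; the difference between the lines was not tested, since each line has 1 library per group. The mean differences in the authors' deposited tables were 40.0 points in line 1 and -42.3 points in line 3 for Neurog1, 46.6 and -70.7 points for Olig1, 33.6 and -34.5 points for Tcf15, and 42.9 and -79.0 points for Nhlh1. Tcf24 had the opposite order, -29.4 points in line 1 and 59.1 points in line 3. Neurog1 rested on the same 2 tiles in each line, Olig1, Tcf15 and Tcf24 shared 1 tile between the lines, and Nhlh1 shared 0. No member had opposite directions in the lines throughout after long culture. The share of all protein-coding genes with opposite directions with BrafV600E is not given here, so the 5 members are not shown to be unusual. Among member tiles listed in both lines with BrafV600E, 21.9% gained in line 1 and were lost in line 3, and 3.12% did the reverse. Over all such tiles the shares were near these, at 18.9% and 7.23%.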

How the results depend on the processing

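With BrafV600E the 8 members gained only in both lines became 3 in windows of 5 kb and 4 with at least 2 tiles a line, and 14 to 23 when either line stood alone. The 10 after long culture became 5 at differences of at least 40 points and 6 with at least 2 tiles, and 10 to 24 with either line alone. Myod1, the 1 member lost only in both lines with BrafV600E, left 0 at 40 points and 0 with at least 2 tiles, while gene ends within 1 kb and merged tiles gave 2 each, and the lines alone gave 3 to 6; the 0 after long culture became 1 to 2 with either line alone. The share of gained tiles after long culture in line 1 was 57.9% at differences of at least 40 points, and in line 3 87.7% of merged regions. The other 51 recomputed counts and shares stayed within 1.5 times of the count or inside the interval of the share. A wider window or a single line changes which tiles a gene must satisfy; other causes were not tested. Leaving out Sim1, Sim2 and Npas3, chosen after seeing the data, gave gained shares of 91.5%, 68.9%, 79.3% and 94.7%. No paired analysis was possible because each table is already a within-line comparison of 2 libraries, without counts. Depth is unknown, so a gene without a listed tile was not shown to be unchanged.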
